A study of Homo sapiens with 6 samples.

Results

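The ABC (ATP-binding cassette) transporters of OVCAR8 cells, a human line from high grade serous ovarian cancer, were compared between control cells, cells treated with DZNep and cells in which EZH2 had been silenced. Of 14930 genes in the expression table, 30 carried a symbol of the subfamilies ABCA to ABCG, and the 22 with a value of 5 or more in 2 or more of the 6 samples were taken as members. They comprised 5 members of subfamily A, 6 of B, 4 of C, 3 of D, 1 of E and 3 of F, and none of G. GENCODE v44 annotates 45 protein-coding symbols of this form, and the other 15 were not analysed here. Control cells (Ctrl) received DMSO, and the DZNep group received 5 μM DZNep, an inhibitor of S-adenosylhomocysteine hydrolase that lowers cellular methyltransferase activity and EZH2 protein. The shEZH2 group consisted of OVCAR8 cells carrying hairpin #2 against EZH2 in a doxycycline-inducible vector and received 1 μg/mL doxycycline. The concentrations follow the study's methods, since the sample labels print mM and mg/mL. RNA was collected after 72 hours from 2 samples per group. The comparison group is labelled only as control OVCAR8, so the hairpin line, doxycycline and the loss of EZH2 cannot be told apart in the shEZH2 group, and nothing states that the samples of a group came from separate cultures. The p-values therefore measure the spread between these samples, which may be technical.

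ABC proteins bind ATP through a pair of nucleotide-binding domains and, in most subfamilies, use it to move a substrate across a membrane. Subfamily A moves lipids, subfamily B holds the drug pump P-glycoprotein together with smaller transporters of the mitochondrion and lysosome, and subfamily C holds the multidrug resistance-associated proteins. Subfamily D acts mainly at the peroxisome, subfamily G moves sterols and drugs, and subfamilies E and F have no membrane part and act on ribosomes or translation. In ovarian cancer the family is best known for drug efflux, through ABCB1, ABCC1 and ABCG2. EZH2 is the methyltransferase of Polycomb repressive complex 2.

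Each value is a whole number in a table that the authors scaled to a common total in every sample (999956 to 1000068), so the values are relative amounts of RNA and not reads, and the depth behind them is unknown. EZH2 itself had values of 36 and 42 in Ctrl, 26 and 26 with DZNep, and 18 and 18 in shEZH2 cells. It was lower in both treated groups (limma, log2 fold change -0.63 and adjusted p = 0.0255 with DZNep; -1.12 and adjusted p = 0.016 in shEZH2 cells). Markers of the labelled tissue were mixed. PAX8, a Müllerian lineage factor, lay between 10 and 19 and KRT7 between 350 and 597, while WT1 lay at 1 or 2. EPCAM lay between 5 and 12 and FOLR1 between 13 and 26. Of 5 markers of other cell types, 1 was listed, the fibroblast marker COL1A1, and it lay between 9 and 16, close to PAX8. CDH1, the epithelial cadherin, stood at 1 and 0 in Ctrl, 7 and 8 with DZNep, and 1 and 2 in shEZH2 cells. MSLN, the mesothelial antigen common in serous tumours, was 176 and 150 in Ctrl, 45 and 36 with DZNep, and 102 and 95 in shEZH2 cells. KRT8, an epithelial keratin, was 1021 and 816 in Ctrl, 3540 and 3046 with DZNep, and 1484 and 1494 in shEZH2 cells. KRT18, another keratin, was 1392 and 1080 in Ctrl, 4398 and 3793 with DZNep, and 1591 and 1592 in shEZH2 cells. The part of these markers in the results below was not tested. The shEZH2 samples resembled each other more than replicates of the other groups did. The SD of the log2 difference between replicates over all tested genes was 0.141 in shEZH2, against 0.428 in Ctrl and 0.447 with DZNep, so calls that were lost when these samples were averaged as 1 are named below. Both calls of EZH2 were among them, with adjusted p = 0.091 for DZNep and 0.19 for shEZH2 (limma). In such bulk samples, fewer cells of a kind and less RNA per cell cannot be told apart.

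**Figure D1:**
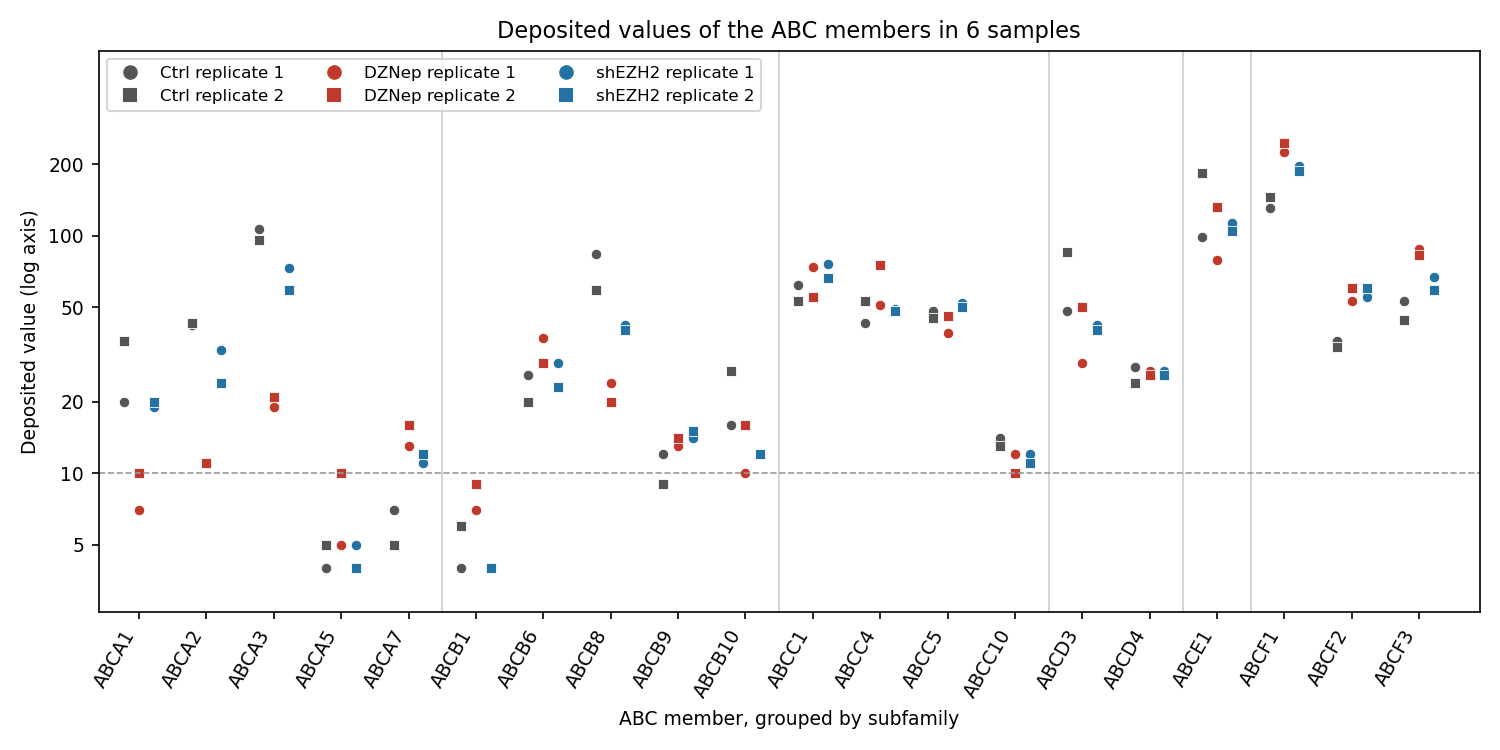
Deposited values of 20 ABC members (log axis, relative units) in the 6 samples, grouped by subfamily A to F from left to right; circles are replicate 1 and squares replicate 2, identical values overlie each other, and the dashed line marks 10, the minimum for the test. ABCA3 fell from 107 and 96 in Ctrl to 19 and 21 with DZNep, while ABCC4 of subfamily C lay between 43 and 75 in all samples.

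With DZNep, ABCA1, ABCA2 and ABCA3 of the lipid transporters and the mitochondrial ABCB8 and ABCB10 fell, ABCA7 and all 3 members of subfamily F rose, and no drug efflux member passed the test. Of the 22 members, 19 reached 10 or more in 2 or more samples and entered the limma test over 9671 genes. With DZNep, 4 were higher (ABCA7, ABCF1, ABCF2, ABCF3) and 7 were lower (among them ABCA1, ABCA2, ABCA3, ABCB8, ABCB10 and ABCD3) by an adjusted p under 0.05. The same rule called 22.4% of all tested genes higher and 20.4% lower with DZNep, so a call by itself was common in this comparison. ABCA7 reached the filter only through the treated groups, so these counts describe the members and support nothing further. With the minimum lowered to 5, all 22 members were tested, and 4 were higher and 8 lower. The median log2 fold change of the 19 was -0.20, against 0.017 over all tested genes. When the mean of the shEZH2 samples entered as 1 sample, the calls of ABCB10, ABCD3, ABCF2 and ABCF3 were lost and the other 7 kept.

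**Figure D2:**
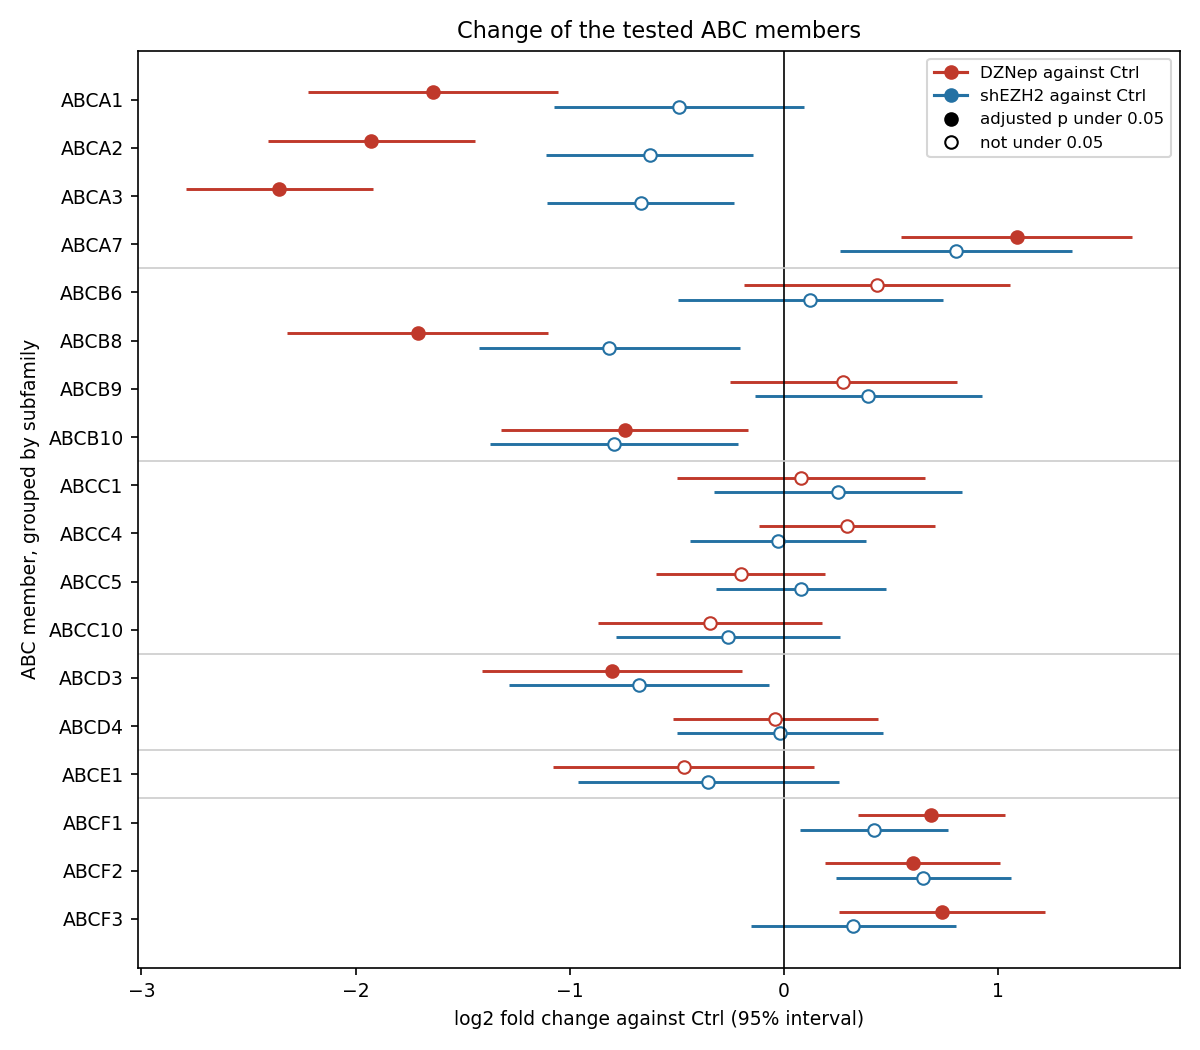
Log2 fold change against Ctrl with its 95% interval for 18 tested members, red for DZNep and blue for shEZH2; filled points passed an adjusted p of 0.05. With DZNep 10 of the points shown are filled, from -2.36 for ABCA3 to 1.09 for ABCA7, and in shEZH2 cells none is.

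Within subfamily A, 3 of the 4 tested members fell with DZNep and 1 rose. ABCA3, which loads phospholipid into lamellar bodies in the lung, had values of 107 and 96 in Ctrl, 19 and 21 with DZNep, and 73 and 59 in shEZH2 cells. The samples of the 3 groups did not overlap, with DZNep lowest. Its level fell 5.12-fold with DZNep (log2 fold change -2.36, SE 0.19, limma adjusted p = 0.000137), and the value in shEZH2 cells was -0.67 (adjusted p = 0.0643). ABCA2, a transporter of late endosomes and lysosomes linked to sterol handling, stood at 42 and 43 in Ctrl, 11 and 11 with DZNep, and 33 and 24 in shEZH2 cells. Again no sample of one group reached those of another. It fell 3.80-fold with DZNep (log2 fold change -1.93, SE 0.21, adjusted p = 0.000445), against -0.62 in shEZH2 cells (adjusted p = 0.100).

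ABCA1 exports cholesterol and phospholipid from the plasma membrane to apolipoprotein A-I, the first step in forming high-density lipoprotein. Its values were 20 and 36 in Ctrl, 7 and 10 with DZNep, and 19 and 20 in shEZH2 cells. Both DZNep samples lay under all others, whereas the higher shEZH2 sample equalled the lower control sample. ABCA1 fell 3.12-fold with DZNep (log2 fold change -1.64, SE 0.25, limma adjusted p = 0.00181), and in shEZH2 cells the value was -0.49 with a 95% interval from -1.07 to 0.09. Because its DZNep values were small, rounding was checked, and an error of 0.5 in every value would leave the log2 ratio of the deposited means between -1.83 and -1.61. ABCA7, a relative of ABCA1 that also moves phospholipid, went the other way, with 7 and 5 in Ctrl, 13 and 16 with DZNep, and 11 and 12 in shEZH2 cells. All treated samples exceeded both control samples. It rose 2.13-fold with DZNep (log2 fold change 1.09, SE 0.23, adjusted p = 0.0077), and its value in shEZH2 cells was 0.81 (adjusted p = 0.0689). ABCA7 reached the filter only through the treated groups, where it is high, so these values are a description. Rounding alone would allow 1.11 to 1.45 for the DZNep ratio of deposited means. The remaining member of the subfamily, ABCA5, lay at 4 and 5 in Ctrl, 5 and 10 with DZNep, and 5 and 4 in shEZH2 cells, below the filter.

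The sequences just upstream of the start sites of ABCA1 and ABCA3, lowered by DZNep, are shown to compare their motif content with that of the raised F subfamily below. Both are RefSeq promoter windows (GRCh38.p14) of 250 bases, read 5′ to 3′ on the gene's own strand and ending at the base before the annotated start. ABCA1 covers chr9:104928156-104928405 and ABCA3 covers chr16:2340729-2340978, both on the minus strand. The starts are those of RefSeq, and GENCODE v44 places the start of ABCA3 at 2340746, inside its window. Capitals mark the GC box (GGGCGG), the E-box (CACGTG), the TATA box (TATAAA), the CCAAT box (CCAAT) and a pair of nuclear receptor hexamers (AGGTNA and NGGTCA spaced by 4 bases), each searched on both strands, so that a reverse match appears as its complement.
ABCA1: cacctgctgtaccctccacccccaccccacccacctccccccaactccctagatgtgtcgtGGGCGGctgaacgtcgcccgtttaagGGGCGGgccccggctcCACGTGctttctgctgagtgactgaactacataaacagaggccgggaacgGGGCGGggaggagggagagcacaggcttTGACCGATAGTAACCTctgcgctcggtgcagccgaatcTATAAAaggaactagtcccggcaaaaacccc
ABCA3: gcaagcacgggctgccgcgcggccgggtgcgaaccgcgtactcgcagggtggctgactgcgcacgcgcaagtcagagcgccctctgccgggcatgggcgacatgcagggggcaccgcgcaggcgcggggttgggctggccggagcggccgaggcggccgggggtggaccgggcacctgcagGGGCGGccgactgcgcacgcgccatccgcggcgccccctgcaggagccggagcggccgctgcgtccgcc
The ABCA1 window held the spaced hexamers 69 bases before the start, on the reverse strand, and a TATA box 31 bases before it. The hexamer pair was chosen after this window had been viewed, and it occurs in 0.0797% of 35116 RefSeq windows of this length, against 10.7% for the TATA box, 6.34% for the E-box, 42.6% for the GC box and 32.0% for the CCAAT box. Neither the hexamers nor a TATA box or E-box was found in the ABCA3 window, which held 1 GC box. Windows were found for 19 of the 22 members, and ABCA1 was the 1 member with the hexamer pair. A member was counted where any of its windows held a motif. The TATA box was found in 3 members (ABCA1, ABCC5, ABCC10). The E-box was found in 5 (ABCA1, ABCB6, ABCB9, ABCC10, ABCF1). Of these, ABCB6, ABCB9, ABCC5 and ABCC10 were not called with DZNep, so these motifs did not follow the direction of change. A match is a run of letters and no evidence of binding. Spacing of 4 bases between such hexamers is the textbook preference of the liver X receptors with RXR. The liver X receptor genes fall outside the rule for named genes and were looked up after the ABCA1 values had been seen. NR1H2 had values of 25 and 17 in Ctrl, 24 and 30 with DZNep, and 27 and 27 in shEZH2 cells, with a log2 fold change with DZNep of 0.29 (95% interval -0.27 to 0.86), and NR1H3 lay at 3 or 4 in every sample.

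In subfamily B, 3 of the 5 tested members fell with DZNep, among them the mitochondrial ABCB8 and ABCB10. ABCB8, a transporter of the inner mitochondrial membrane, had values of 84 and 59 in Ctrl, 24 and 20 with DZNep, and 42 and 40 in shEZH2 cells. The groups formed separate steps from Ctrl down to DZNep. It fell 3.27-fold with DZNep (log2 fold change -1.71, SE 0.26, limma adjusted p = 0.00181), against -0.81 in shEZH2 cells (adjusted p = 0.0913). ABCB10, which acts in erythroid heme synthesis and in protection from oxidative stress, stood at 16 and 27 in Ctrl, 10 and 16 with DZNep, and 12 and 12 in shEZH2 cells. The higher DZNep sample equalled the lower control sample. Its fitted change was close in both groups, -0.74 with DZNep (adjusted p = 0.0441) and -0.79 in shEZH2 cells (adjusted p = 0.086). The DZNep call was lost without Ctrl replicate 2, DZNep replicate 1 or either shEZH2 sample. That call was also lost with the values as deposited, with no filter beyond a value above 0, and with only the 2 groups compared.

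ABCB6, a porphyrin carrier of the mitochondrion and other membranes, was not called. It had 26 and 20 in Ctrl, 37 and 29 with DZNep, and 29 and 23 in shEZH2 cells, and its log2 fold changes were 0.43 (95% interval -0.19 to 1.05) and 0.12 (-0.50 to 0.74). ABCB9, a lysosomal peptide transporter, lay between 9 and 15 in all 6 samples, with a log2 fold change of 0.28 with DZNep and 0.40 in shEZH2 cells, neither called. The proteins under other symbols that complete the antigen-processing branch of this subfamily behaved unequally. TAP1 rose 2.01-fold with DZNep, from 141 and 114 in Ctrl to 283 and 256 (log2 fold change 1.01, limma adjusted p = 0.00697), and stood at 224 and 209 in shEZH2 cells (0.72, adjusted p = 0.0718). Its partner TAP2 had 84 and 74 in Ctrl, 87 and 81 with DZNep, and 86 and 78 in shEZH2 cells, a log2 fold change of 0.02 with DZNep and an interval from -0.44 to 0.47.

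Drug efflux was represented by 5 members, ABCB1, ABCC1, ABCC4, ABCC5 and ABCC10, and 0 of the 4 that entered the test were called in any of the 3 comparisons by limma (0 also at an unadjusted p under 0.05, which 51.1% of all tested genes reached with DZNep, 28.2% in shEZH2 cells and 27.4% in the direct comparison). ABCC1, which exports glutathione conjugates and several anticancer drugs, had values of 62 and 53 in Ctrl, 74 and 55 with DZNep, and 76 and 66 in shEZH2 cells. The replicates overlapped between Ctrl and DZNep. Its log2 fold change was 0.08 with DZNep (95% interval -0.50 to 0.66) and 0.25 in shEZH2 cells (-0.33 to 0.83). ABCC4, an exporter of cyclic nucleotides and prostaglandins, had 43 and 53 in Ctrl, 51 and 75 with DZNep, and 49 and 48 in shEZH2 cells. The corresponding log2 fold changes were 0.30 (-0.12 to 0.71) and -0.03 (-0.44 to 0.39). ABCC5, another exporter of cyclic nucleotides, lay between 39 and 52 in all 6 samples, with -0.20 with DZNep (-0.60 to 0.20) and 0.08 in shEZH2 cells (-0.31 to 0.48). ABCC10, which can transport taxanes, lay between 10 and 14, with -0.34 with DZNep (-0.87 to 0.18) and -0.26 in shEZH2 cells (-0.78 to 0.26). Changes within these intervals could not be resolved with 2 samples per group.

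ABCB1 encodes P-glycoprotein, the classical multidrug pump. Its values were low, at 4 and 6 in Ctrl, 7 and 9 with DZNep, and 4 and 4 in shEZH2 cells, so that the DZNep samples lay above all others by 1 unit or more of a rounded value. With the minimum lowered to 5, which admitted 11595 genes, the limma log2 fold change was 0.54 with DZNep (95% interval 0.04 to 1.03, adjusted p = 0.0798) and -0.28 in shEZH2 cells (adjusted p = 0.436). The direct difference of shEZH2 from DZNep was -0.82 (adjusted p = 0.0549). ABCC2, an apical exporter of conjugates that confers cisplatin resistance in some cell lines, stayed under the member rule with 1 and 1 in Ctrl, 5 and 4 with DZNep, and 2 and 2 in shEZH2 cells. ABCG2, the breast cancer resistance protein, was listed at 1 or 2 in every sample.

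**Figure D3:**
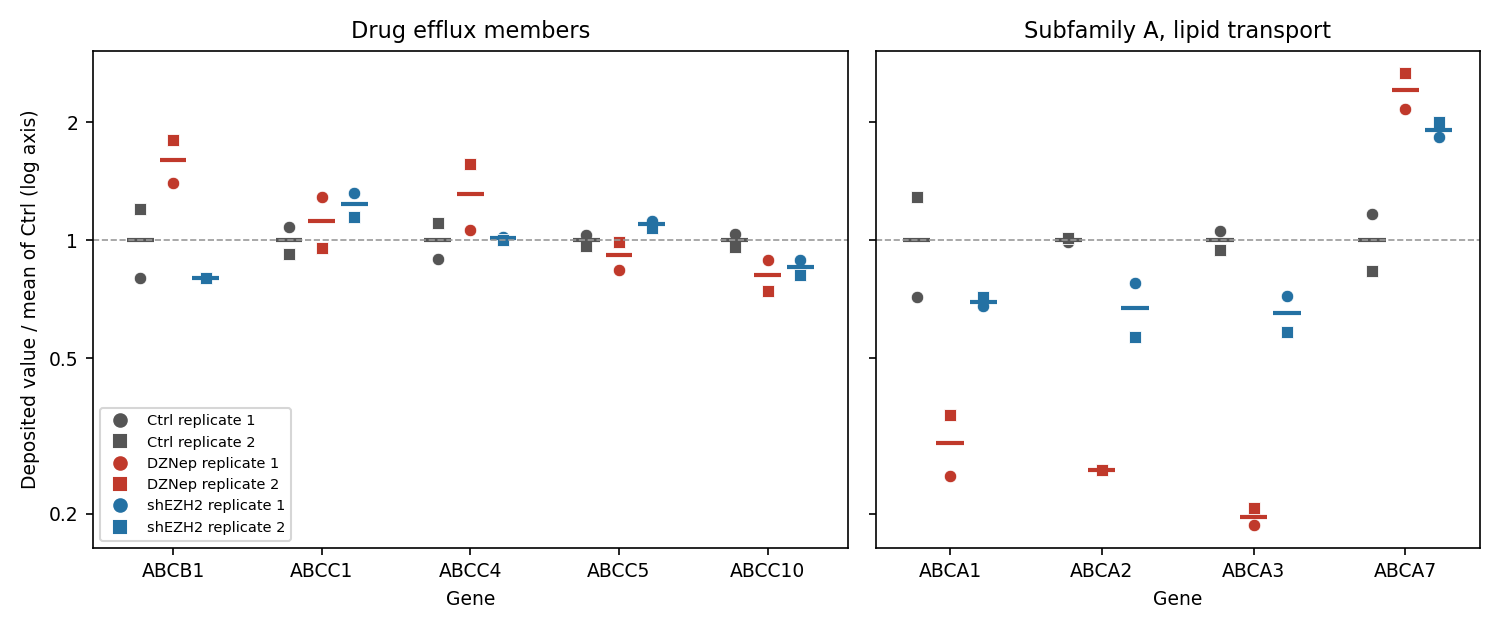
Deposited value of each sample divided by the mean of the Ctrl samples (log axis) for the 5 drug efflux members (left) and the 4 tested members of subfamily A (right); bars are group means of 2 samples and the dashed line is the Ctrl mean. The DZNep points of ABCA1, ABCA2 and ABCA3 lie under the Ctrl and shEZH2 points, whereas most drug efflux points lie near the line and the ABCB1 points come from values of 4 to 9.

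The threshold of 5 separated close values. Just inside it stood ABCA5 and ABCB1, with values from 4 to 10. Just outside stood ABCB4, a phosphatidylcholine exporter of bile canaliculi, with 4 and 5 in Ctrl, 2 and 2 with DZNep and 3 and 3 in shEZH2 cells, and ABCA4, the retinal transporter of retinoid conjugates, with 1 and 1, 4 and 5, and 2 and 2. ABCC6 and ABCC9 lay between 2 and 4. The G subfamily was low throughout. ABCG1, the partner of ABCA1 in cholesterol efflux to mature lipoprotein, was at 1 or 2, and ABCG4 was at 1 in all 6 samples.

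Of the peroxisomal subfamily D, ABCD3 fell with DZNep. ABCD3, which imports branched-chain and dicarboxylic acyl-CoA, had values of 48 and 85 in Ctrl, 29 and 50 with DZNep, and 42 and 40 in shEZH2 cells. Replicate 2 exceeded replicate 1 in both Ctrl and DZNep, and the groups overlapped. Its log2 fold change was -0.80 with DZNep (SE 0.26, limma adjusted p = 0.0406) and -0.68 in shEZH2 cells (adjusted p = 0.142). The DZNep call was lost without the same samples, and under the same other settings, as that of ABCB10. ABCD4, a lysosomal protein of cobalamin export, lay between 24 and 28 in every sample, with log2 fold changes of -0.04 (95% interval -0.52 to 0.44) and -0.02 (-0.50 to 0.46).

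All 3 members of subfamily F rose with DZNep. ABCF1, which binds initiation factor eIF2 and ribosomes, had values of 131 and 145 in Ctrl, 224 and 245 with DZNep, and 196 and 187 in shEZH2 cells. The groups were separate, with shEZH2 between the others. It rose 1.61-fold (log2 fold change 0.69, SE 0.15, limma adjusted p = 0.00788), and the shEZH2 value was 0.42 (adjusted p = 0.112). ABCF2 had 36 and 34 in Ctrl, 53 and 60 with DZNep, and 55 and 60 in shEZH2 cells. Both treatments gave nearly the same levels, above both controls, with 0.60 for DZNep (SE 0.18, adjusted p = 0.027) and 0.65 for shEZH2 (adjusted p = 0.0591, the lowest among the members in that comparison). ABCF3 had 53 and 44 in Ctrl, 88 and 83 with DZNep, and 67 and 59 in shEZH2 cells. Here the DZNep samples were highest, with 0.74 (SE 0.21, adjusted p = 0.023), against 0.33 in shEZH2 cells (95% interval -0.15 to 0.81). The calls of ABCF2 and ABCF3 were lost without Ctrl replicate 2, DZNep replicate 1 or either shEZH2 sample. ABCE1, the ribosome recycling factor, was not called, with 99 and 183 in Ctrl, 79 and 132 with DZNep, and 113 and 105 in shEZH2 cells. Its control samples differed more than its group means, and the log2 fold changes were -0.47 (-1.08 to 0.14) and -0.35 (-0.96 to 0.26). Without Ctrl replicate 1, ABCE1 would be called with DZNep (-0.83, adjusted p = 0.021), and without Ctrl replicate 2 the value was -0.11 (adjusted p = 0.77).

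The corresponding windows upstream of the F subfamily (RefSeq, GRCh38.p14, 250 bases, capitals as above) are shown because these genes moved in 1 direction. ABCF1 covers chr6:30571192-30571441 on the plus strand, ABCF2 covers chr7:151227206-151227455 on the minus strand, and ABCF3 covers chr3:184185949-184186198 on the plus strand. GENCODE v44 places the starts of ABCF1 (30571393) and ABCF3 (184186095) inside these windows, so the ends of both windows lie within the genes as annotated there.
ABCF1: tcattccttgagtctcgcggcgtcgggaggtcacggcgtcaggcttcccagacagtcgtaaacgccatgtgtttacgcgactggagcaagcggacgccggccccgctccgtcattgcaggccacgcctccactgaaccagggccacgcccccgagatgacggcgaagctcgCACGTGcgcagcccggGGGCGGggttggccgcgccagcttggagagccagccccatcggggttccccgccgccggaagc
ABCF2: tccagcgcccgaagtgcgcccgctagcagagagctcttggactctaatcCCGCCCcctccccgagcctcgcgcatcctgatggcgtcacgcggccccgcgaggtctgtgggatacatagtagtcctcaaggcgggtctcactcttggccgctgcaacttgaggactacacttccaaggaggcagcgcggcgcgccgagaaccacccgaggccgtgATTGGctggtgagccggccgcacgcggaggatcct
ABCF3: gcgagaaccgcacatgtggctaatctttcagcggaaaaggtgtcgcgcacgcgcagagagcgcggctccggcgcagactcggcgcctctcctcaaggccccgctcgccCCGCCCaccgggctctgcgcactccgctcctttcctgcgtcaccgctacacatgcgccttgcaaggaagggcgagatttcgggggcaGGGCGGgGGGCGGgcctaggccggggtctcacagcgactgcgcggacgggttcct
No TATA box or hexamer pair was found in them, and each held at least 1 GC box, as did 16 of the 19 members with a window. That count is by member, over any of its windows, so it cannot be set against the 42.6% of single windows. An E-box was found in ABCF1 alone of the 3, 79 bases before the start, and a CCAAT box in ABCF2 alone, 35 bases before it. The GC content of the 5 windows shown ran from 61.6% in ABCA1 to 79.2% in ABCA3, against a median of 58.0% over all windows.

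Members that lie near each other were not called alike. ABCB8 (chromosome 7, 151028422 to 151047782, plus strand) and ABCF2 (chromosome 7, 151211484 to 151227205, minus strand) are separated by 163.7 kb in GENCODE v44 on GRCh38, and the first fell while the second rose with DZNep. ABCC5 (chromosome 3, 183919934 to 184017939, minus strand) and ABCF3 (chromosome 3, 184186095 to 184194012, plus strand) are separated by 168.2 kb, and of these ABCF3 was called. Several members share their locus with another gene. ABCF2 overlaps the readthrough gene ABCF2-H2BK1 on its own strand, so reads of these genes could be split between them, and ABCE1 overlaps ANAPC10 and OTUD4 on the other strand. ABCA3 overlaps a gene without a symbol on its own strand and ABCA17P on the other. Stranded libraries were made, but the strand setting of the counting is not given in the sources used here. ABCB10, ABCF2 and ABCA3 also have annotated pseudogene copies, and their values are uncertain to that extent.

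After silencing of EZH2, none of the 19 tested members was called against Ctrl. Calls were also less common over all tested genes in that comparison, with 3.9% higher and 4.53% lower. Together these make 8.43%, a share that was 0.362% without either shEZH2 sample and 0.403% with these averaged as 1. At an unadjusted p under 0.05, limma gave 9 members, 3 with higher levels (ABCA7, ABCF1, ABCF2) and 6 with lower levels (among them ABCA2, ABCA3, ABCB8, ABCB10 and ABCD3), against 28.2% of all tested genes. The median log2 fold change was -0.03, against -0.007 over all tested genes. Each comparison used the same Ctrl samples, so a shared direction with DZNep is not independent of it. The members called in shEZH2 cells changed with the sample left out. They were ABCA7, ABCB10, ABCD3 and ABCF2 without Ctrl replicate 1, and ABCB8 without Ctrl replicate 2. ABCA3 and ABCF2 were among those called without DZNep replicate 1 or 2. None was called without shEZH2 replicate 1 or 2. The share of all tested genes called moved with the setting too, and was 15.9% with only the 2 groups compared.

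Compared directly, shEZH2 cells held more ABCA1, ABCA2 and ABCA3 than DZNep cells. None of the 19 tested members was called lower (0 also at an unadjusted p under 0.05). ABCB1, which was below the filter, was lower with the minimum lowered to 5, though not called (limma, -0.82, unadjusted p = 0.0052, adjusted p = 0.0549). Over all tested genes 4.88% were higher and 4.42% lower in this comparison. ABCA3 was 3.22-fold higher in shEZH2 cells (log2 difference 1.69, SE 0.19, limma adjusted p = 0.00407), ABCA2 2.46-fold (1.30, adjusted p = 0.0128) and ABCA1 2.22-fold (1.15, adjusted p = 0.0325). The call of ABCA3 held under all 16 other settings, whereas those of ABCA1 and ABCA2 were lost with the shEZH2 samples averaged or with either left out. That of ABCA1 was also lost with the values as deposited (adjusted p = 0.071) and without DZNep replicate 1 (adjusted p = 0.079). ABCB8 (0.90, SE 0.26, adjusted p = 0.0707) passed only an unadjusted p of 0.05. For ABCA7 the difference was -0.28 (95% interval -0.82 to 0.26). For the 3 members of subfamily F it ran from -0.41 to 0.05 and for the 4 of subfamily C from -0.32 to 0.28, none called. The 2 treatments were given at a single dose and time each.

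**Figure D4:**
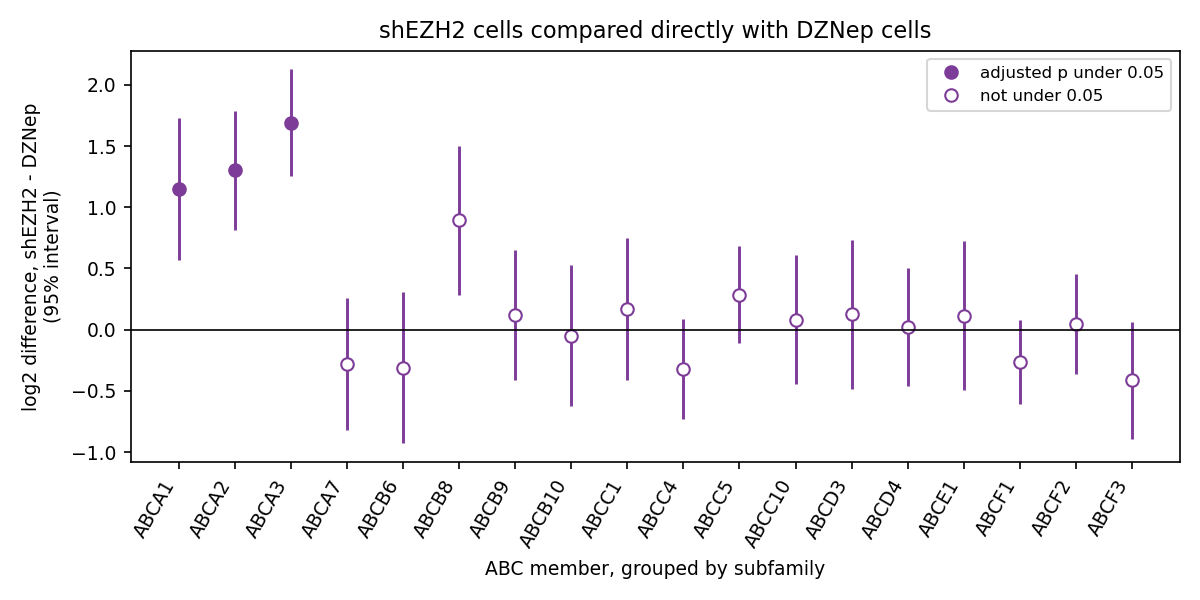
Log2 difference of shEZH2 cells from DZNep cells with its 95% interval for 18 tested members, grouped by subfamily; filled points passed an adjusted p of 0.05. The filled points are ABCA1, ABCA2 and ABCA3, at 1.15 to 1.69, and of the other intervals shown that of ABCB8 excludes 0.

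Genes that work beside the members were taken from lists and tested in the same fit. Of 13 tested cholesterol transport partners, 1 rose and 3 fell with DZNep. NCEH1, a cholesterol ester hydrolase, had 64 and 81 in Ctrl, 26 and 37 with DZNep, and 53 and 48 in shEZH2 cells. It fell with DZNep (log2 fold change -1.26, limma adjusted p = 0.00126), and the shEZH2 value was -0.55 (adjusted p = 0.09). Of 9 tested nuclear receptors and sterol factors, 1 rose and 2 fell. SREBF1, which drives lipid synthesis genes, fell from 40 and 43 to 13 and 13 with DZNep (-1.67, adjusted p = 0.000449), while shEZH2 cells had 45 and 40. The direct difference of SREBF1 from DZNep to shEZH2 cells was called, at 1.65, as were those of ABCA1, ABCA2 and ABCA3. That of NCEH1 was also called (0.71, limma adjusted p = 0.0475), but the call was lost with the shEZH2 samples averaged. In the direct comparison 3 of the 13 partners were higher and 1 lower, and 1 of the 9 factors was higher and 1 lower. Over all tested genes 4.88% were higher and 4.42% lower there. PPARD rose from 7 and 7 to 31 and 27 with DZNep (1.84, adjusted p = 0.000602) and to 16 and 14 in shEZH2 cells (0.95, adjusted p = 0.0373), whereas PPARG fell from 14 and 13 to 6 and 7 with DZNep (-1.02, adjusted p = 0.00472). PPARD reached the filter of 10 only through the treated groups and PPARG only through Ctrl, so these values are a description. With the shEZH2 samples averaged, the direct call of SREBF1 held (adjusted p = 0.0448) and the shEZH2 call of PPARD was lost (adjusted p = 0.309).

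Beside the mitochondrial members, 5 of 16 tested genes of heme and iron-sulfur synthesis rose and 4 fell with DZNep. UROS, the uroporphyrinogen III synthase, fell from 107 and 86 to 14 and 17 (log2 fold change -2.63, limma adjusted p = 0.000109) and to 38 and 36 in shEZH2 cells (-1.40, adjusted p = 0.0126). FECH, which inserts iron to form heme, fell from 11 and 15 to 4 and 3 with DZNep (-1.69, adjusted p = 0.00126), though it reached the filter only through Ctrl, where it is high. SLC25A38, a mitochondrial glycine carrier, rose from 20 and 15 to 39 and 37 (1.02, adjusted p = 0.0101). Beside ABCD3, 2 of 12 tested peroxisomal oxidation genes rose and 3 fell. ACOX3, a peroxisomal acyl-CoA oxidase, fell from 39 and 31 to 10 and 8 with DZNep (-1.91, adjusted p = 0.000945) and to 16 and 17 in shEZH2 cells (-1.08, adjusted p = 0.0413). The acyl-CoA ligase ACSL3 and the bifunctional enzyme HSD17B4 fell by 1.68 and 1.10 on the log2 scale with DZNep. Of 14 partners in ribosome rescue and initiation, 1 rose and 2 fell. EIF2S3, a subunit of the eIF2 that ABCF1 binds, fell from 207 and 279 to 102 and 150 with DZNep (-1.02, adjusted p = 0.00322) and to 144 and 147 in shEZH2 cells (-0.77, adjusted p = 0.0407). The shEZH2 calls of UROS, ACOX3 and EIF2S3 were lost with the shEZH2 samples averaged as 1 (adjusted p = 0.115, 0.27 and 0.332). Each of these lists held genes called in both directions, as did the whole table, with 22.4% higher and 20.4% lower.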

How the data were processed

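RNA from 6 OVCAR8 samples (3 groups of 2, by the sample labels) was analysed. Per the study's methods and the submitters' notes, libraries were stranded and depleted of ribosomal RNA, and the authors used fastp for trimming, STAR for alignment (GRCh38) and RSEM for gene quantification. The deposited values are a score, whole numbers scaled by the authors to a common total per sample. The deposit calls them counts, which the equal totals contradict, and the scaled quantity is not given in the sources used here. Read depth is therefore unknown and no counting interval was computed. The count test of the study's methods and of the original plan was replaced by limma 3.58.1 (R 4.3.3) on log2(value + 1) after unweighted TMM scaling (factors 0.92 to 1.116), with an intensity trend and 1 fit of the 3 group means over 9671 genes. Fold changes are on this scale, which understates those of low genes. P-values are two-sided and Benjamini-Hochberg adjusted over all tested genes, and a call means an adjusted p under 0.05. Intervals are 95% and unadjusted.

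Named genes were EZH2, drug efflux and lipid members, members called or changed by a log2 value above 1, and at most 6 called genes above that size per partner list. ABCB6, ABCB9, ABCC2, ABCD4, ABCE1 and the other low genes are named to account for every symbol. The members and lists were chosen with earlier results of these data known. The steps were tested on simulated data. Gene positions came from GENCODE v44 and promoters from RefSeq. Other scalings, filters, pseudocounts, fits, call rules and omitted replicates were tried, and averaging of the shEZH2 samples for the partner lists was added after the data had been seen. Columns outside these samples numbered 0. Values of a few genes are not reported here, in the text or the plots. Plots used matplotlib 3.10.9 (Python 3.11.15).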

Additional observations from a re-analysis of the deposited data

How the results depend on the processing

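With DZNep, ABCA1, ABCA2, ABCA3, ABCA7, ABCB8 and ABCF1 were called under all 16 alternatives with an adjusted p. ABCA7 reached the filter of the main fit only through the treated groups, so its calls are a description. Higher members numbered 2 in place of 4 with only the 2 groups compared and with the mean of the shEZH2 samples entered as 1 sample, 1 at a log2 fold change above 1 with an unadjusted p under 0.05, and 2 to 4 with a sample left out. Lower members numbered 5 to 8 with a sample left out. They numbered 5 in place of 7 with the values as deposited, with no filter beyond a value above 0, and with only the 2 groups compared. In each of these the calls of ABCB10 and ABCD3 were lost. In shEZH2 cells the counts of 0 higher and 0 lower became 1 higher with the values as deposited, and 1 higher and 2 lower with only the 2 groups compared. Leaving out a sample gave 0 to 2 in each direction. In the direct comparison 3 higher members became 1 with the shEZH2 samples averaged, and 1 to 4 with a sample left out. The fold change of EZH2 with DZNep lost its call at -0.63 with only the 2 groups or the averaged samples (-0.75 to -0.51 with a sample left out, the call being lost without Ctrl replicate 2, DZNep replicate 2 or either shEZH2 sample, adjusted p = 0.073 to 0.092), and that in shEZH2 cells at -1.12 with the averaged samples (-1.15 to -1.09, lost without either shEZH2 sample, adjusted p = 0.21 and 0.17). The averaged fit has fewer samples to estimate the spread; the cause of the other shifts was not tested.

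Signs turned only among members with no call. Values as deposited gave 0.02 for ABCC4 in shEZH2 cells and 0.03 for ABCD4 in both comparisons. With a sample left out, ABCC1 ran from -0.25 to 0.42 and ABCD4 from -0.22 to 0.15 with DZNep, and in shEZH2 cells ABCB6 ran from -0.13 to 0.38, ABCC4 from -0.10 to 0.04, ABCC5 from -0.04 to 0.21, ABCD4 from -0.20 to 0.17 and ABCE1 from -0.71 to 0.01. The labels do not say what a replicate number marks. Deviations of same-numbered samples correlated at 0.786 between Ctrl and DZNep, but at -0.024 between Ctrl and shEZH2 and -0.038 between DZNep and shEZH2, so the numbers were not taken as pairs across the groups. With the number as a replicate block, 4 members were higher and 8 lower with DZNep (ABCE1 added, -0.47, adjusted p = 0.024), 2 higher and 6 lower in shEZH2 cells, and 4 higher in the direct comparison. The share of all genes called in shEZH2 cells was then 28.6%. Rounded values of 10 or less limit ABCA1, ABCA7 and ABCB1 most.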

Other observations

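Of the 9 tested carriers that move drugs by other means than an ABC protein, 2 were higher and 3 lower with DZNep, and none was called in shEZH2 cells (limma, adjusted p under 0.05; 2 at an unadjusted p under 0.05). Over all tested genes 22.4% were higher and 20.4% lower with DZNep, and in shEZH2 cells 8.43% were called and 28.2% had an unadjusted p under 0.05. SLC29A2, an equilibrative nucleoside transporter, fell from 15 and 10 in Ctrl to 4 and 5 with DZNep (log2 fold change -1.34, adjusted p = 0.00479) and stood at 12 and 10 in shEZH2 cells. The direct difference of shEZH2 from DZNep was 1.15 (adjusted p = 0.0349, and 0.235 with the shEZH2 samples averaged as 1). SLC29A2 reached the filter only through the groups where it is high. SLCO4A1, an organic anion transporter, fell from 28 and 25 in Ctrl to 10 and 6 with DZNep (-1.71, adjusted p = 0.00302) and stood at 13 and 12 in shEZH2 cells (-1.07, adjusted p = 0.0607).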
